A study of Mus musculus with 10 samples.

Results

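Sprouty, Spred and PEA3 genes belong to the feedback arm of growth factor signalling. When a receptor tyrosine kinase activates RAS, RAF, MEK and ERK, active ERK raises the transcription of genes that report its activity or damp it. The Sprouty proteins (Spry1 to Spry4) act on the adaptors and RAF kinases between the receptor and ERK, and the Spred proteins (Spred1 to Spred3), which share the cysteine-rich Sprouty domain, bring the RAS inhibitor neurofibromin to the membrane. The PEA3 factors Etv1, Etv4 and Etv5 are ETS transcription factors whose own genes are induced downstream of fibroblast growth factor and ERK. DUSP6 is a cytoplasmic phosphatase that removes the activating phosphates from ERK, and is itself an ERK-induced feedback gene. These proteins are known from branching organs, neural tissue, endothelium and the T cell response.

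The 10 genes with these names were taken from a table of 54532 genes measured by RNA sequencing in spleens of arthritic mice. DUSP6 KO mice (Dusp6tm1Jmol, which the sample labels call a knockdown) were compared with C57BL/6J WT mice, with 5 spleens and 1 library per spleen in each group. All mice, KO and WT alike, received 100 µL of arthritogenic serum from KRN x NOD F1 mice into the peritoneum on days 0 and 2 (KRN serum-induced arthritis, KSIA), and spleens were taken at day 9. Mice were 8 to 12 weeks old. Both sexes were injected in the study, and the sequenced spleens were male by their expression of sex-linked genes. The allele removes DUSP6 from every cell of the mouse. The paper reports milder arthritis in DUSP6 KO than in WT mice given this serum. It obtained the KO and WT mice as separate strains and describes no littermate controls. Effects of the deletion, of disease severity and of other differences between the strains therefore cannot be told apart here. RNA was taken from whole spleen, in which fewer cells of a type and less RNA per cell cannot be told apart. Values are FPKM, fragment counts scaled to gene length and sequencing depth. Comparisons between mice depend on that scaling, and other scalings were tried as alternatives.

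The level of Dusp6, the deleted gene, ranged from 0.308 to 0.624 FPKM in the KO spleens and from 16.6 to 24.0 FPKM in the WT spleens. Libraries held 14990474 to 19822673 reads, and depth did not differ between the groups beyond the spread of the libraries (two-sided exact permutation test, p = 0.60). Of the 21296 genes averaging at least 0.1 FPKM, which were tested with limma, 15 (0.0704%) passed an adjusted p of 0.05. The paper gives far larger counts of increased and decreased genes in these spleens, with no threshold stated beside them. At an unadjusted p under 0.05, 2.62% of the genes tested were higher and 3.03% lower in DUSP6 KO. In 0.549% of genes all 5 KO values lay above all 5 WT values, and in 0.563% below them. Among the libraries, WT 67 stood apart by pancreatic enzyme transcripts, with a summed level of 12484 FPKM over 6 exocrine pancreas markers against at most 158 elsewhere, and DUSP6 KO 21 had the highest summed level of 8 stromal fibroblast markers (124 FPKM).

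The DNA just before the start of 4 of these genes is shown because ERK acts on transcription through factors with known binding letters. Each stretch is the 250 bases before the annotated start, read 5′ to 3′ on the gene's strand from the RefSeq annotation of GRCm38.p6. For Spred1 and Spred3 this start differs from that of the gene span used for expression. The Spred3 stretch lies inside that span, and the Spred1 stretch lies before it without adjoining it. Capitals mark the ETS core GGAA on either strand, where it reads TTCC on the opposite one, and the octamers bound by Capicua, the repressor that ERK signalling inactivates. Stretches of Etv1, Etv5 and Spred2 were searched as well but are not shown, and none of them held such an octamer. The intervals are chr3:37639697-37639946 (plus strand) for Spry1, chr14:105896820-105897069 (minus strand) for Spry2, chr2:117120821-117121070 (plus strand) for Spred1 and chr7:29168648-29168897 (minus strand) for Spred3.
Spry1: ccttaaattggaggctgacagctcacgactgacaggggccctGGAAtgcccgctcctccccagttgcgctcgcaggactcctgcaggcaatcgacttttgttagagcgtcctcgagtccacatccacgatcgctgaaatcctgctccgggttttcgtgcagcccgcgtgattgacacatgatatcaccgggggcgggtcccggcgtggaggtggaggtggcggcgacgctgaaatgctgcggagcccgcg
Spry2: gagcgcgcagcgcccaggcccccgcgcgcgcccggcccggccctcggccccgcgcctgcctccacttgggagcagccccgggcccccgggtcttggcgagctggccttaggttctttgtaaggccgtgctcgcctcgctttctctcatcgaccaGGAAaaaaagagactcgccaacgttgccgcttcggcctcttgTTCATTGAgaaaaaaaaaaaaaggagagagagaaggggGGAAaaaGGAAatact
Spred1: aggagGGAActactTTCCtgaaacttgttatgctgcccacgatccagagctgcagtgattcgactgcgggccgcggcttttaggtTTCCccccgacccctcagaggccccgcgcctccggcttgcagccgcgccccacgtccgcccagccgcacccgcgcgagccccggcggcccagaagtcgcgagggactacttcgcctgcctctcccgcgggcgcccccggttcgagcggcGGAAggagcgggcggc
Spred3: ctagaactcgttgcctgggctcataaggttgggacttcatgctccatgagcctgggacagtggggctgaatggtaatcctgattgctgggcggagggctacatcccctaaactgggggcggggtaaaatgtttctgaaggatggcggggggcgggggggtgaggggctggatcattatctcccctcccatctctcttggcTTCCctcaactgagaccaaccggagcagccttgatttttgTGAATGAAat

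RefSeq promoters were matched for 7 of the 10 genes, with 9 promoters in all, since Etv1 and Etv5 each have 2 annotated starts. A Capicua octamer (TGAATGAA, TGAATGGA, TCAATGAA or TCAATGGA, on either strand) lies in 3.19% of 32851 promoters of the same length. Among the matched genes it was found in Spry2, where it reads TTCATTGA and ends 46 bases before the RefSeq start. It was also found in Spred3, where it reads TGAATGAA and ends 2 bases before the RefSeq start, inside the gene span used for expression. The core GGAA lies in 93.4% of all promoters and so singles out none of them, and the 9 promoters held from 0 (an Etv5 start) to 7 (Spred2) of them, with 1 in Spry1, 3 in Spry2, 4 in Spred1 and 1 in Spred3. The longer ETS motif CCGGAAGT, which contains the core (2.88% of promoters), the AP-1 motifs TGACTCA and TGAGTCA (4.46%), the cAMP response element TGACGTCA (1.55%) and the CArG box of serum response factor (1.47%) were in no promoter of these genes within the window. The share of G and C was 62.4% in Spry1, 62.4% in Spry2, 70.8% in Spred1 and 55.6% in Spred3, and 44.4% (an Etv1 start) to 71.2% (an Etv5 start) over the 9 promoters, with a median of 52.4% over all promoters. A match is a string of letters, not a bound site, and these data hold no measurement of binding.

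Spry1 had the largest fitted difference of the 8 genes that passed the expression filter. This gene lies on chromosome 3 (GRCm38, 37639947 to 37644598, plus strand, ENSMUSG00000037211) and encodes a membrane-associated inhibitor of RAS signalling that is induced by growth factors and, in T cells, by antigen receptor signals. It was at 3.39, 6.42, 4.81, 4.94 and 4.46 FPKM in DUSP6 KO mice 26, 21, 73, 01 and 03 and at 2.07, 2.72, 1.76, 1.82 and 3.11 FPKM in WT mice 65, 67, 73, 77 and 83. Every KO spleen was above every WT spleen, and the gap was narrow, between KO 26 and WT 83. Spry1 averaged 4.81 ± 1.09 FPKM over the KO spleens and 2.30 ± 0.59 FPKM over the WT spleens (SD, n = 5 per group). On log2(FPKM + 0.1), the difference was 1.04 (SE 0.20, 95% interval 0.60 to 1.48), with an unadjusted limma p of 0.00033 and an adjusted p of 0.24 over all genes tested. The two-sided exact permutation test gave p = 0.0079, the smallest that 5 mice against 5 allow. Spry1 thus passed the test for a single gene but not the one corrected for the whole table, as the 15th gene by p among all those higher in DUSP6 KO. An antisense transcript of unknown kind, Gm42922, overlaps Spry1 by 710 bases and was at 0.0328 FPKM or less.

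Spry4 and Spry2 followed with smaller differences and the same separation of the groups. Spry4, on chromosome 18 (38586268 to 38601268, minus strand, ENSMUSG00000024427), encodes a Sprouty that is strongly induced by fibroblast and vascular endothelial growth factors. It was at 1.95, 3.07, 1.65, 2.23 and 2.09 FPKM in DUSP6 KO mice 26, 21, 73, 01 and 03 and at 1.27, 1.19, 1.48, 1.35 and 1.01 FPKM in WT mice 65, 67, 73, 77 and 83. All KO values were higher than all WT values, with KO 73 nearest to the WT range. Mean levels were 2.20 ± 0.53 and 1.26 ± 0.18 FPKM (SD, n = 5 each). The log2 difference was 0.74 (SE 0.17, 95% interval 0.35 to 1.12), with an unadjusted limma p of 0.0015, an adjusted p of 0.37 and an exact permutation p of 0.0079.

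Spry2, on chromosome 14 (105891947 to 105896819, minus strand, ENSMUSG00000022114), encodes the Sprouty best known for binding the ubiquitin ligase CBL and the adaptor GRB2. Its level was 3.67, 5.99, 3.40, 3.96 and 4.53 FPKM in DUSP6 KO mice 26, 21, 73, 01 and 03, and 2.998, 2.69, 2.97, 2.88 and 2.78 FPKM in WT mice 65, 67, 73, 77 and 83. The WT spleens were nearly equal, with a coefficient of variation of 4.59%, whereas the KO spleens varied by 23.8%, and again no KO spleen was as low as any WT spleen. Means were 4.31 ± 1.03 FPKM with the deletion and 2.86 ± 0.13 FPKM without it (SD, n = 5 per group). The log2 difference was 0.55 (SE 0.14, 95% interval 0.23 to 0.87), with an unadjusted limma p of 0.0033, an adjusted p of 0.46 and an exact permutation p of 0.0079. The separation depended on the scaling. In RPM over the recovered reads Spry2 ranged from 6.74 to 14.0 in KO and from 5.81 to 6.85 in WT libraries, a slight overlap. Spry1 (10.3 to 20.98 against 5.38 to 9.999) stayed apart. Spry4 (7.19 to 15.8 against 5.12 to 7.16) did so only barely, between KO 73 and WT 73.

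Spry3 was close to undetected. Its row is placed on the unlocalised scaffold GL456233.1, it was at 0.0246, 0.0118, 0.0471, 0.0318 and 0.125 FPKM in DUSP6 KO mice 26, 21, 73, 01 and 03, and it was at 0, 0, 0, 0.0415 and 0.0898 FPKM in WT mice 65, 67, 73, 77 and 83. These values stand for 1 to 9 reads in the KO and 0 to 7 reads in the WT libraries, so that no difference was detectable at this depth (exact permutation p = 0.38), and the gene fell under the expression filter.

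**Figure D1:**
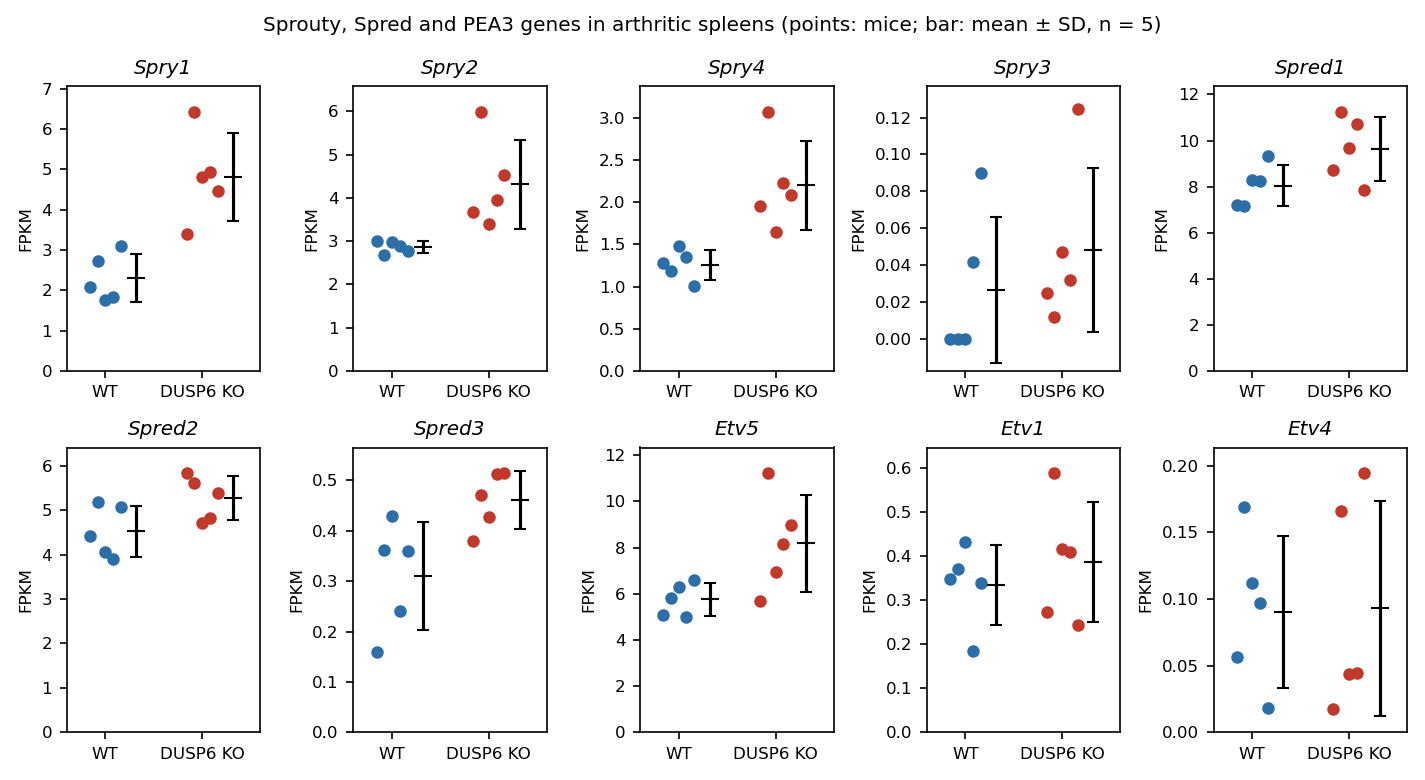
FPKM of the 10 genes in each spleen (linear vertical axis in every panel; points are mice, bars the mean ± SD of 5 mice, blue WT and red DUSP6 KO). Spry1, Spry2 and Spry4 have no overlap between the groups, the other 7 genes do, and DUSP6 KO 21 is the highest point of its group in 6 of the 8 genes that passed the expression filter.

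Within the Sprouty family the summed level was 9.04 to 15.5 FPKM (median 11.2) in DUSP6 KO and 6.10 to 6.99 FPKM (median 6.35) in WT. Spry1 made up a median of 41.5% of this sum in DUSP6 KO (range 37.5 to 48.6%) and 32.7% in WT (28.3 to 44.5%), while Spry2 made up 38.6% and 47.2%. The order of the pair by mean level thus differed between the groups, but the ranges of the shares overlapped. Whether the members responded unequally was tested on the log2 ratio of each pair within a spleen, in 7 pairs over the 3 families. The ratio of Spry1 to Spry2 was 0.49 higher in DUSP6 KO (95% interval 0.01 to 0.98; exact permutation p = 0.071, 0.25 adjusted over the 7 pairs). That of Spry1 to Spry4 differed by 0.30 (−0.31 to 0.91; exact permutation p = 0.31, adjusted 0.36), and that of Spry2 to Spry4 by −0.19 (−0.39 to 0.01; exact permutation p = 0.056, adjusted 0.25). A difference in response was therefore not shown for any pair of Sproutys.

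The Spred genes had fitted differences of 0.22 to 0.49, and all 3 overlapped between the groups. Spred1, on chromosome 2 (117121374 to 117182279, plus strand, ENSMUSG00000027351), the gene mutated in Legius syndrome, had the highest mean level of the 10 genes in both groups. It was at 8.71, 11.2, 9.69, 10.7 and 7.85 FPKM in DUSP6 KO mice 26, 21, 73, 01 and 03 and at 7.19, 7.17, 8.30, 8.25 and 9.34 FPKM in WT mice 65, 67, 73, 77 and 83. The ranges overlapped, since KO 26 and KO 03 lay below WT 83. Its log2 difference was 0.25 (95% interval −0.01 to 0.51), with an unadjusted limma p of 0.055 and an adjusted p of 0.91. By the exact permutation test p was 0.079. The log2 difference of Spred1 was 0.19 without DUSP6 KO 21, and 0.15 with an unadjusted limma p of 0.23 without both DUSP6 KO 21 and WT 67.

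Spred2, on chromosome 11 (19924375 to 20024026, plus strand, ENSMUSG00000045671), an inhibitor of RAS and ERK signalling in blood-forming cells, was at 5.82, 5.60, 4.71, 4.82 and 5.39 FPKM in DUSP6 KO mice 26, 21, 73, 01 and 03. In WT mice 65, 67, 73, 77 and 83 it was at 4.42, 5.17, 4.07, 3.89 and 5.06 FPKM. WT 67 and WT 83 lay within the KO range, and the log2 difference of 0.22 (95% interval −0.02 to 0.46) had an unadjusted limma p of 0.070, an adjusted p of 0.92 and an exact permutation p of 0.071.

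Spred3, on chromosome 7 (29158829 to 29170411, minus strand, ENSMUSG00000037239), the Spred with the narrowest known expression, was at 0.379, 0.471, 0.428, 0.512 and 0.514 FPKM in DUSP6 KO mice 26, 21, 73, 01 and 03. The WT mice 65, 67, 73, 77 and 83 had 0.160, 0.362, 0.429, 0.242 and 0.359 FPKM. Only WT 73 reached into the KO range, where it lay above KO 26 and just above KO 73. The log2 difference was 0.49 (95% interval −0.06 to 1.03), and the 2 tests fell on different sides of the threshold, with an unadjusted limma p of 0.073 (adjusted 0.93) and an exact permutation p of 0.024. The libraries held 17 to 69 reads of this gene, and Ggn on the opposite strand shares 202 bases with it and was at 0.211 to 0.71 FPKM. The use of strand in counting is not given in the sources used here, so the Spred3 value is uncertain.

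Summed over the family, the Spreds were at 13.7 to 17.3 FPKM (median 14.9) in DUSP6 KO and at 11.8 to 14.8 FPKM (median 12.7) in WT. Spred1 made up a median of 64.9% of the sum in DUSP6 KO and 63.3% in WT, Spred2 32.3% and 34.3%, and Spred3 2.89% and 2.43%. Of the 3 pair ratios in this family, none differed between the groups by the exact permutation test, with p of 0.81 for Spred1 to Spred2 (difference 0.03, 95% interval −0.35 to 0.42), 0.27 for Spred1 to Spred3 and 0.24 for Spred2 to Spred3.

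Among the PEA3 factors, Etv5 was the one expressed at any height in the spleen. It lies on chromosome 16 (22381309 to 22439719, minus strand, ENSMUSG00000013089) and encodes a factor with roles in stem cell maintenance and in T helper cells. Etv5 was at 5.68, 11.2, 6.92, 8.13 and 8.99 FPKM in DUSP6 KO mice 26, 21, 73, 01 and 03 and at 5.07, 5.80, 6.30, 4.999 and 6.60 FPKM in WT mice 65, 67, 73, 77 and 83. Of the KO spleens, 26 lay within the WT range and the other 4 above it. Averages were 8.19 ± 2.10 FPKM against 5.75 ± 0.71 FPKM (SD, n = 5 per group). The log2 difference was 0.47 (SE 0.17, 95% interval 0.10 to 0.85), with an unadjusted limma p of 0.018, an adjusted p of 0.75 and an exact permutation p of 0.040. Without both DUSP6 KO 21 and WT 67, the log2 difference of Etv5 was 0.36 with an unadjusted limma p of 0.057.

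Etv1, on chromosome 12 (38779380 to 38870484, plus strand, ENSMUSG00000004151), known from neurons, interstitial cells of Cajal and prostate cancer, was low and did not pass the test. It was at 0.274, 0.588, 0.416, 0.410 and 0.245 FPKM in DUSP6 KO mice 26, 21, 73, 01 and 03, and at 0.347, 0.370, 0.432, 0.185 and 0.340 FPKM in WT mice 65, 67, 73, 77 and 83. The groups overlapped throughout, with a log2 difference of 0.15 (95% interval −0.46 to 0.75, unadjusted limma p = 0.60, exact permutation p = 0.58). The Etv1 difference was 0.00999 without DUSP6 KO 21 and 0.0017 without WT 77, so it rested on single libraries. Etv4, on chromosome 11 (101769742 to 101785371, minus strand, ENSMUSG00000017724), a factor of limb and kidney branching, stood at 1 to 10 reads per library in both groups. Its levels were 0.0173, 0.166, 0.0440, 0.0446 and 0.194 FPKM in DUSP6 KO and 0.0565, 0.169, 0.112, 0.0969 and 0.0180 FPKM in WT, in the same order of mice, which fell under the expression filter and overlapped fully (exact permutation p = 0.96).

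Etv5 made up a median of 94.7% of the summed PEA3 level in DUSP6 KO and 92.6% in WT, and Etv1 4.77% and 5.85%. The sum was 5.97 to 11.96 FPKM (median 8.59) and 5.28 to 6.95 FPKM (median 6.33). The ratio of Etv1 to Etv5 differed by −0.33 on the log2 scale (95% interval −0.79 to 0.14; exact permutation p = 0.13, 0.31 adjusted over the 7 pairs), so a difference between them was not shown.

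By mean level in WT spleens the order was Spred1 (8.05 ± 0.90 FPKM), Etv5 (5.75 ± 0.71), Spred2 (4.52 ± 0.58), Spry2 (2.86 ± 0.13), Spry1 (2.30 ± 0.59), Spry4 (1.26 ± 0.18), Etv1 (0.335 ± 0.091), Spred3 (0.310 ± 0.108), Etv4 (0.0904 ± 0.0571) and Spry3 (0.0263 ± 0.0398), each with its SD over 5 mice. The neighbours Etv5 and Spred2, Spry2 and Spry1, Etv1 and Spred3, Spred3 and Etv4, and Etv4 and Spry3 overlapped in range. In DUSP6 KO spleens Spry1 stood above Spry2 and Spred3 above Etv1 in mean level (4.81 and 4.31 FPKM, and 0.461 ± 0.058 and 0.386 ± 0.137 FPKM), and both pairs overlapped there too.

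Counted together, 8 of the 10 genes passed the expression filter, all 8 with a positive fitted difference and a median of 0.48, against a median of −0.0046 and 49.0% positive over all genes tested. At an unadjusted p under 0.05, 4 of the 8 were higher (Spry1, Spry2, Spry4 and Etv5) and 0 were lower, beside the 2.62% and 3.03% of all genes tested. Of these, 3 showed no overlap between the groups (2 when scaled by recovered reads), beside 0.549% of all genes. The members were chosen with earlier results of these data known, so these counts are not independent support. None of the 8 passed an adjusted p of 0.05 in limma, beside 0.0704% of all genes. None did under any of 23 other settings of the analysis, voom on recovered reads included. DESeq2 was not run here. The paper, whose methods describe DESeq2 on counts, lists Spry1 and Spry4 as higher in DUSP6 KO with an adjusted p under 0.05. Its text also names a gene printed as Spy2, read here as Spry2, among those most significantly increased. DUSP6 KO 21 was the highest KO spleen for 6 of the 8 genes, all but Spred2 and Spred3. Without it the KO means were 4.40 ± 0.70 FPKM for Spry1, 3.89 ± 0.49 for Spry2, 1.98 ± 0.25 for Spry4 and 7.43 ± 1.44 for Etv5 (SD, n = 4). The 3 Sproutys kept an unadjusted limma p under 0.05 in all 23 settings, with log2 differences of 0.81 to 1.15 for Spry1, 0.49 to 0.83 for Spry4 and 0.40 to 0.62 for Spry2.

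**Figure D2:**
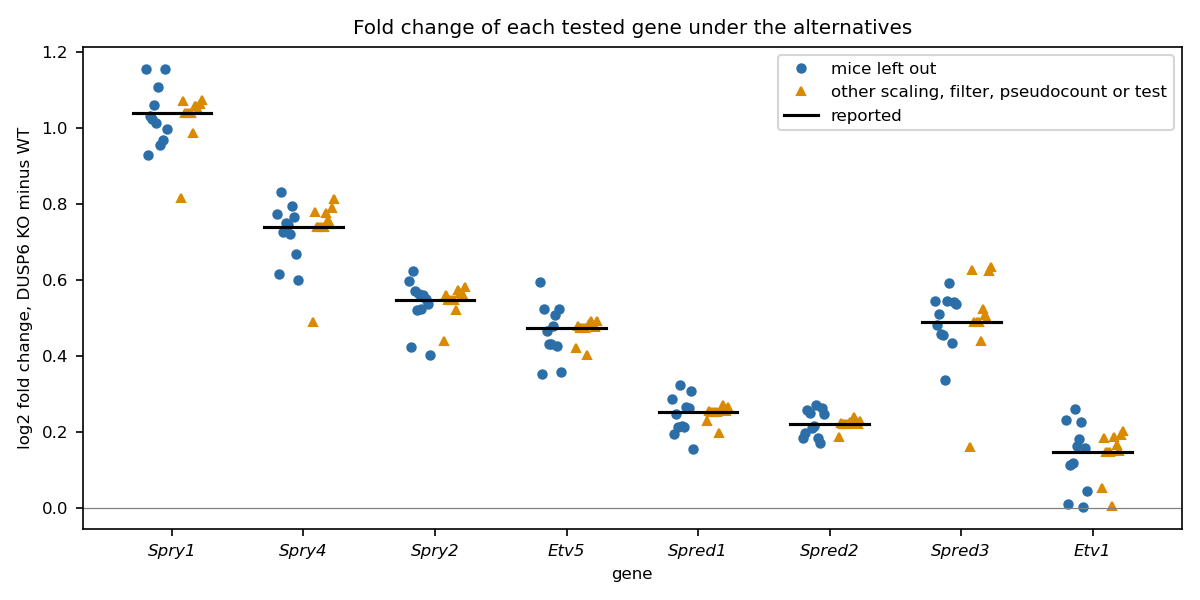
Log2 difference between DUSP6 KO and WT for the 8 genes tested (vertical axis, log2 scale) as reported (black line), with mice left out (blue points) and with another scaling, filter, pseudocount or test (orange triangles). Spry1 stays between 0.81 and 1.15 and Spry4 between 0.49 and 0.83, while Etv1 comes down to 0.0017 with a mouse left out.

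Other genes of the pathway were counted in the same fit. Of 20 other ERK target and feedback genes, all tested, 11 had a positive difference and the median was 0.04, with 2 higher and 0 lower at an unadjusted p under 0.05. Fos, the immediate early partner of JUN in AP-1, averaged 4.47 ± 2.20 FPKM in the KO spleens (range 2.26 to 7.57) and 2.08 ± 0.21 FPKM in the WT spleens (1.75 to 2.25; SD, n = 5 per group) and did not overlap between the groups. Its log2 difference was 0.94 (exact permutation p = 0.0079, adjusted limma p = 0.62), and its lowest KO value was just above the highest WT value. Epha4, an ephrin receptor, was at 0.171 ± 0.052 and 0.0573 ± 0.0277 FPKM, a log2 difference of 0.78 (exact permutation p = 0.016, adjusted limma p = 0.79). Dusp5, the nuclear ERK phosphatase, came next with 0.37 (exact permutation p = 0.095, adjusted limma p = 0.92).

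Of 15 proteins that Sproutys and Spreds work with, such as adaptors, RAF kinases and RAS inhibitors, none passed an unadjusted limma p of 0.05 in either direction, and the median was −0.0082. First in that list by limma came Rasa1, a RAS GTPase-activating protein, with a log2 difference of −0.18 (exact permutation p = 0.024, adjusted limma p = 0.88), which missed the unadjusted limma threshold narrowly. Shc1, an adaptor (0.15, exact permutation p = 0.33), and Sos2, a RAS exchange factor (0.10, exact permutation p = 0.30), came next. Capicua and the COP1 ubiquitin ligase, which keep PEA3 factors low by repression and by degradation, were followed with their partners in a list of 10 genes, of which none passed (median 0.060). Cop1 (0.14, exact permutation p = 0.29), Det1 (0.10, exact p = 0.37) and Ddb1 (0.10, exact p = 0.47) came first there. Of 6 fibroblast growth factor receptor and co-receptor genes, 5 were tested and none passed at an unadjusted limma p under 0.05 (median 0.25), with Fgfr4 at 0.47 (exact permutation p = 0.016, adjusted limma p = 0.92), Fgfr3 at 0.42 (exact p = 0.10) and Frs3, a docking protein, at −0.44 (exact p = 0.11). Together, 2 of 50 tested pathway genes were higher and 0 lower, beside 2.62% and 3.03% of all genes tested. The paper reports that terms for regulation of the ERK cascade were enriched among its increased genes. That enrichment test was not run here.

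**Figure D3:**
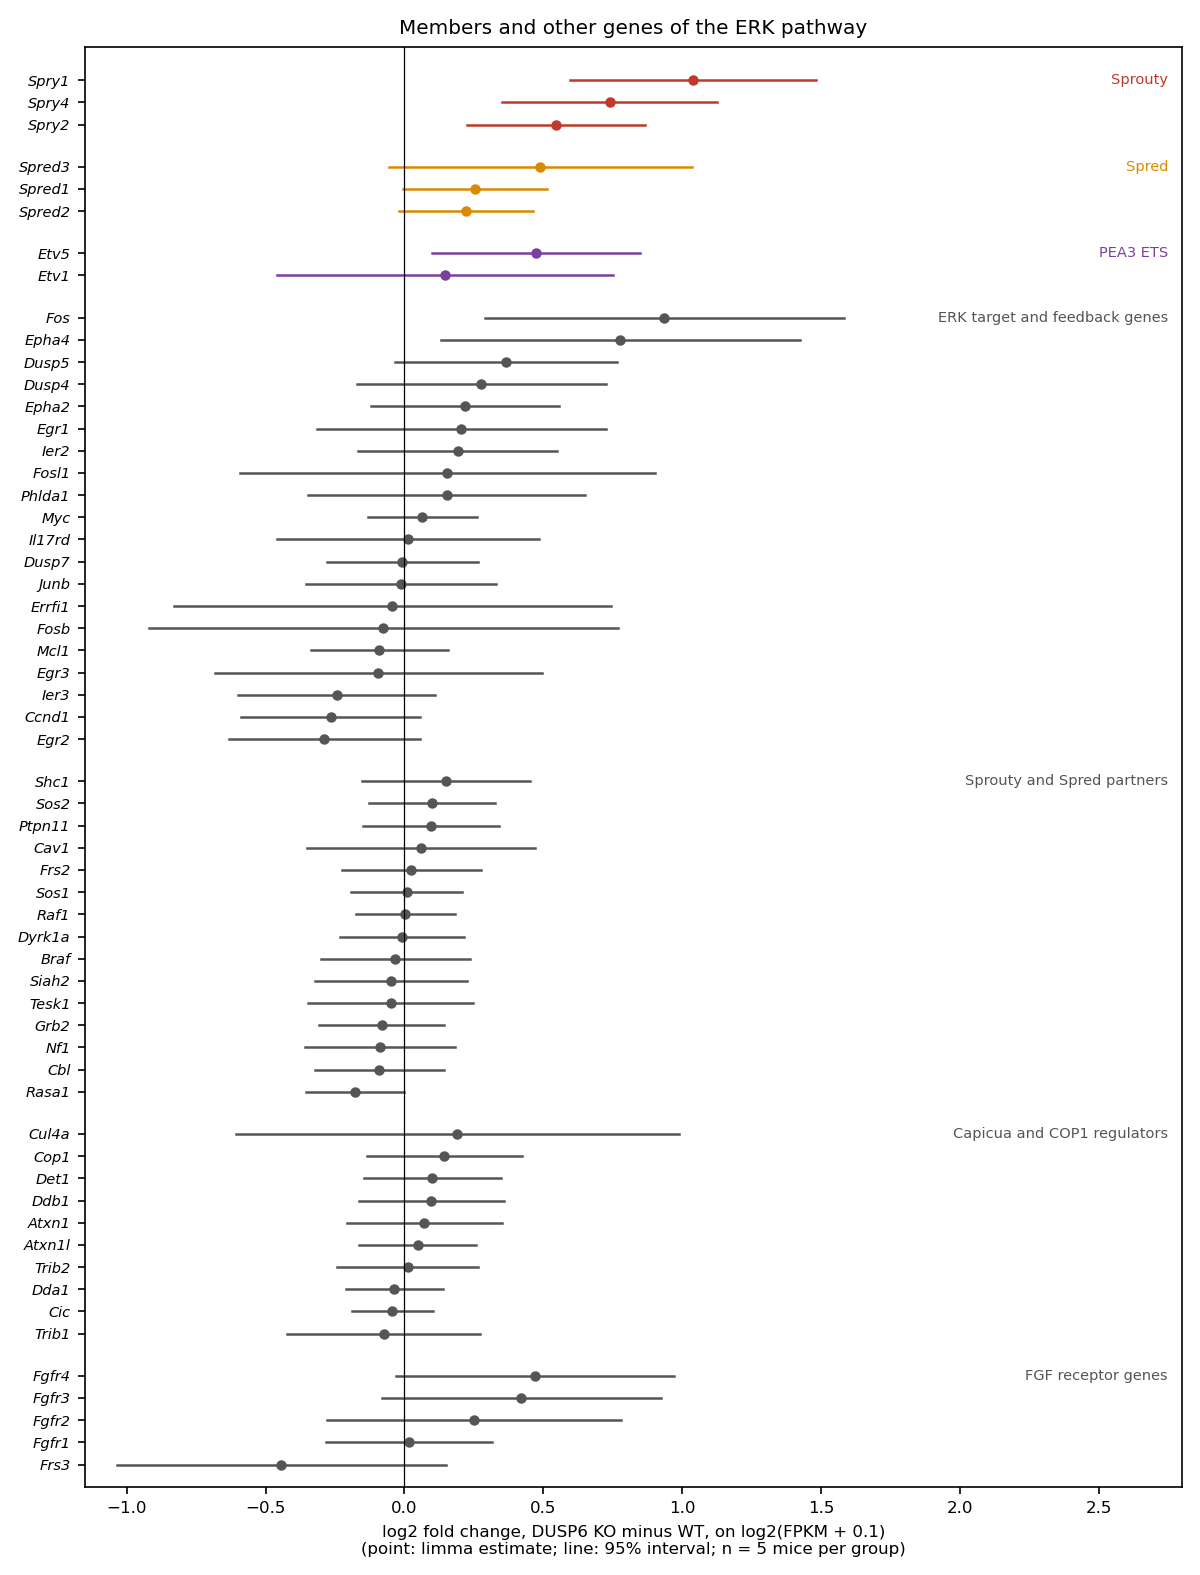
Log2 difference between DUSP6 KO and WT (horizontal axis, points with 95% intervals from limma, 5 mice per group) for the 8 tested Sprouty, Spred and PEA3 genes and 50 other genes of the ERK pathway, by list. The 3 Sproutys (0.55 to 1.04), Etv5, Fos and Epha4 have intervals above 0, and all other intervals include it.

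The most similar profiles over the 10 spleens were sought among genes averaging at least 1 FPKM, by the root mean square difference between centred log2(FPKM + 0.1) values. For Spry4 the nearest of 13421 genes was Spry2, at 0.15, before Hbegf, an epidermal growth factor receptor ligand, at 0.17 and Emp1, a membrane protein, at 0.19. The profile of Spry4 itself had a root mean square of 0.44. For Spry2 the nearest were Akap12, a kinase anchoring protein (0.088), Notch3, a receptor of vascular mural cells (0.11), and Abca9 (0.12), against its own 0.34. The Sproutys' nearest genes differed, since Spry1 was nearest to Gm47469 (0.27), Cd209b (0.29) and Marco (0.29), with 0.60 of its own.

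Etv5 ran closest to Ppic, a cyclophilin (0.080), Aplnr, the apelin receptor of endothelium (0.13), and Notch3 (0.13), against 0.35 of its own. Spred1 was nearest to Mdm1 (0.081) and Spred2 to Srebf1, a regulator of lipid synthesis (0.090), with 0.21 and 0.18 of their own. Etv1 was nearest to Aatk (0.16), against 0.34 of its own. All of these distances include the difference between the groups and rest on 10 spleens.

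**Figure D4:**
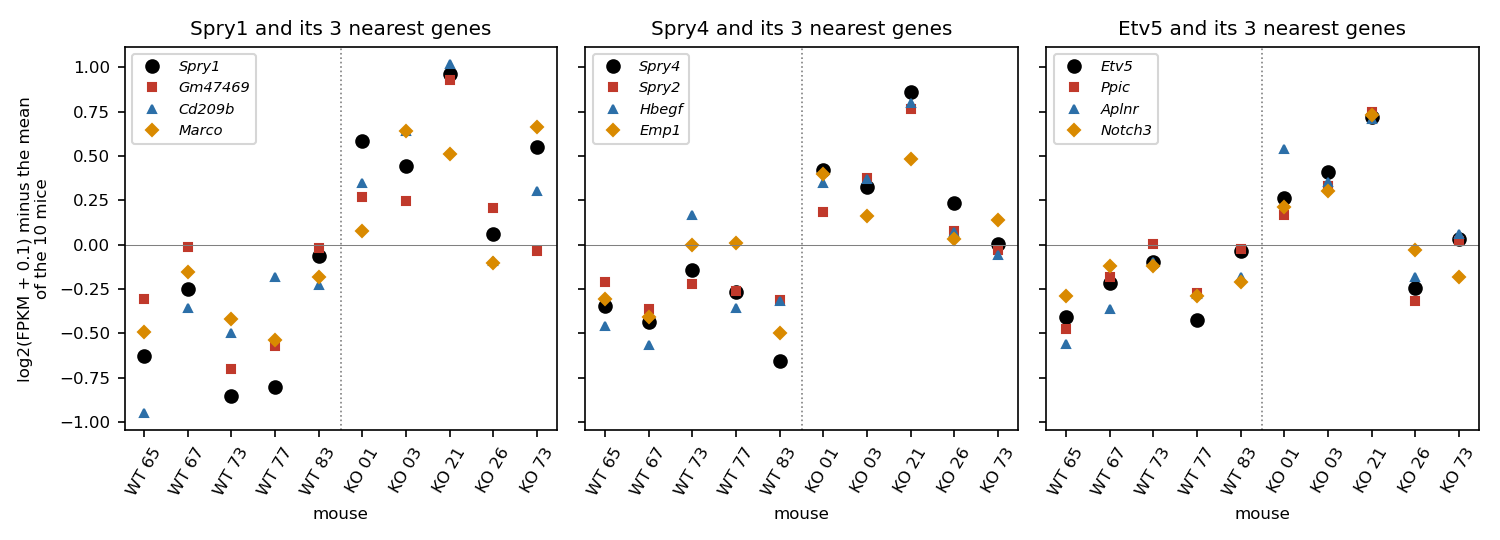
Centred log2(FPKM + 0.1) in each of the 10 spleens (vertical axis, log2 units from the mean of the 10; WT left and DUSP6 KO right of the dotted line) for Spry1, Spry4 and Etv5 with the 3 genes of nearest profile. In all 3 panels DUSP6 KO 21 is the highest spleen for the named gene, and in the Spry4 panel Spry2 and Hbegf follow it there.

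Some cell type markers differed between the groups as well. Marco and Cd209b, receptors of marginal zone macrophages that catch blood-borne particles, were near Spry1 in profile, and the summed level of the 3 markers of these cells was 106 to 178 FPKM (median 170) in DUSP6 KO and 79.7 to 104 FPKM (median 86.3) in WT, with no overlap (two-sided exact permutation test, p = 0.0079). All 3 were positive and 2 passed at an unadjusted p under 0.05 (Cd209b 0.89, Marco 0.72). The third, Siglec1, overlapped between the groups, at 8.07 to 20.6 FPKM in DUSP6 KO and 6.50 to 11.4 FPKM in WT (exact permutation p = 0.063). Marco had the highest level of the 3 and so weighs most in the sum. The paper lists Marco and Cd209b as higher in these spleens, and the lists were chosen with earlier results known. The p of the sum is therefore not independent support. Marco averaged 119.6 ± 27.3 FPKM over the KO and 71.6 ± 8.8 FPKM over the WT spleens (SD, n = 5 per group). The part of these cells in the Spry1 difference was not tested.

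Stromal and vascular markers overlapped between the groups. The 8 stromal fibroblast markers summed to 69.3 to 124 FPKM (median 89.4) in DUSP6 KO and 68.5 to 85.9 FPKM (median 71.2) in WT, with 2 of 8 higher at an unadjusted limma p under 0.05 (Tcf21 at 0.67 and Pdgfrb at 0.57, exact permutation p = 0.016 for both). Of the other 6, Dcn (−0.55) and Col3a1 (−0.07) had negative differences. The 8 endothelial markers summed to 76.4 to 109 FPKM in DUSP6 KO and 68.0 to 102 FPKM in WT, with 2 of 8 higher. DUSP6 KO 21, the highest KO spleen for all 3 Sproutys and Etv5, had the highest stromal, endothelial and marginal zone macrophage sums of all 10 libraries, and the highest megakaryocyte sum of the KO libraries (297 FPKM). Their part in the differences was not tested. With DUSP6 KO 21 and WT 67 both left out, the log2 differences were 0.997 for Spry1, 0.60 for Spry4 and 0.40 for Spry2, with unadjusted limma p of 0.00093, 0.0060 and 0.0071.

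Neutrophil markers went the other way. Their summed level was 547 to 1890 FPKM (median 876) in DUSP6 KO and 1053 to 4929 FPKM (median 1947) in WT, and 7 of 8 were lower at an unadjusted p under 0.05 with a median log2 difference of −1.14 (two-sided exact permutation test of the sum, p = 0.040). The summed markers of red pulp macrophages, B cells, T cells, NK cells, erythroid cells, megakaryocytes, plasma cells and mesothelium overlapped between the groups, among them B cells at 614 to 1196 FPKM in DUSP6 KO and 695 to 1552 FPKM in WT. Single markers within these lists differed, with 2 of 7 red pulp macrophage markers higher, 2 of 4 tested megakaryocyte markers lower and 1 of 5 plasma cell markers lower at an unadjusted p under 0.05. Adgre1, a red pulp macrophage marker, was at 40.2 to 59.5 FPKM in KO and 33.1 to 38.3 FPKM in WT spleens, with no overlap (exact permutation p = 0.0079). No marker of any list was at 0 in all libraries, and the level of Sprouty, Spred and PEA3 transcripts in single cell types was not measured.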

How the data were processed

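RNA of 10 spleens (5 DUSP6 KO, 5 WT) was sequenced by a service provider from poly(A)-selected total RNA. Hisat2 was the authors' aligner for the paired reads and featureCounts 1.5.0-p3 their gene counter, and the deposited FPKM values are the only ones used here. The submitters' notes name the build hg38, although the identifiers are mouse, and 53548 (98.3%) of 54495 genes found in GENCODE release 21 (GRCm38) sit at the same coordinates in both, so GRCm38 positions are printed. FPKM times gene length was a whole multiple of 1 read in 100% of values (tolerance 0.01 read), from which reads were recovered. The FPKM divisor was 0.949 to 1.12 times the recovered reads, a scaling the sources do not describe.

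Genes averaging 0.1 FPKM or more (21296) were tested on log2(FPKM + 0.1) by limma 3.58.1 (R 4.3.3; eBayes with an intensity trend), with Benjamini-Hochberg adjustment over all of them and a threshold of 0.05. Fold changes on this scale understate those of low genes. Single genes, pair ratios and marker sums were compared by two-sided exact permutation over 252 assignments. The members, gene lists and tests were chosen with earlier results of these data known. Besides the 10 members and Dusp6, each pathway list has its 3 genes with the lowest limma p named. Those without overlap between the groups are named as well. Of the marker lists, only that of marginal zone macrophages had genes named for their high level. The 3 nearest profiles of genes averaging at least 1 FPKM are named for Spry1, Spry2, Spry4 and Etv5. For Spred1, Spred2 and Etv1 the nearest alone is named. The nearest profile of Spred3 is not reported here. The names Siglec1, Pdgfrb, Tcf21, Dcn, Col3a1, Adgre1, Gm42922 and Ggn were added once their values were known. The second row of Ccl19, on a scaffold and high in DUSP6 KO 21 alone (60.9 FPKM), was left out of the stromal sum after seeing the data. As alternatives, the pseudocount was set to 1 or 0.01, the filter to 1 FPKM or none, the trend was dropped or made robust, libraries were weighted, and values were quantile-normalized, centred on the median, or rescaled leaving out mitochondrial, haemoglobin, immunoglobulin and T cell receptor genes. Others were voom with 2 size factors, and leaving out each library. Leaving out DUSP6 KO 21 and WT 67 together was chosen after seeing the data. The fits were run on simulated counts with the same setting of spread for every gene. That checks the code, not the error rate in these libraries. The labels name no batch. Libraries of a group differed by more than sampling noise in every pair (chi-square per gene 14.7 to 169), and each counted as 1 replicate. Sequences are RefSeq's (GRCm38.p6). Plots used matplotlib 3.10.9 (Python 3.11.15).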

Additional observations from a re-analysis of the deposited data

Results flagged for a closer look

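Among 50 groups of 5 libraries examined, for the members, Dusp6, the marker sums and the depth, 2 held a library far from the other 4 by Dixon's test (critical value 0.71), where chance gives about 1 in 20. Both were WT 67. Its summed level of 6 exocrine pancreas markers was 12483.9 FPKM, against 158 FPKM in WT 65, the next highest. It also held 18422147 reads, the most of the WT libraries. No member had an outlying library in either group.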

How the results depend on the processing

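No paired analysis was possible because the groups share only the number 73, which names different mice. Spry1, Spry2 and Spry4 kept their direction and an unadjusted p under 0.05 in all 23 alternatives, and Etv5 in all but the one without DUSP6 KO 21 and WT 67. Spred1, Spred2 and Spred3 came under 0.05 in 5, 4 and 5 alternatives, always with a positive difference. The number of members higher was 3 to 6, of those without overlap 2 to 4, and of those past the adjusted threshold always 0.

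The 15 genes called over the whole table (8 higher) became 34 (21 higher) without DUSP6 KO 21, within a range of 10 to 34 (6 to 21 higher) over single libraries left out, and 25 (16 higher) without DUSP6 KO 21 and WT 67. With array weights 13 were higher. The 2 pathway genes higher became 1 with a minimum mean of 1 FPKM, 4 with voom on median-of-ratios size factors, and 1 (without DUSP6 KO 03) to 4 (without DUSP6 KO 73 or WT 67) with single libraries left out. Of the 7 pair ratios, 0 had an unadjusted exact permutation p under 0.05, but 1 had with a pseudocount of 1 (Etv1 to Etv5), 1 with 0.01 and 1 with voom (both Spry2 to Spry4), and 0 to 2 with single libraries left out, the most without WT 73. The difference in the Spred1 to Spred2 ratio, near 0 as reported, was −0.0568 (without WT 67) to 0.112 (without DUSP6 KO 03) over single libraries left out, and −0.0919 without DUSP6 KO 21 and WT 67. Those of Spred1 and Spred2 to Spred3 turned to 0.0695 and 0.0257 with a pseudocount of 1. The causes were not tested. Spry3 and Etv4 had 0 to 10 reads per library, at which no difference was detectable, and Spred3 and Etv1 had 17 to 152.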
